A study of Arabidopsis thaliana with 24 samples.

Results

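The genes described here array by array are the 3 glutaredoxin genes AT3G62950 (GRXC11), AT4G15700 (GRXS3) and AT1G03020 (GRXS1), each read by 1 probe set of the Affymetrix ATH1 array. They were found by matching gene identifiers to the array's annotation, and all 3 had a probe set, out of 22746 probe sets that were not controls. All 3 genes code for glutaredoxins of the plant-specific CC type. The genes were taken up because their signal in these same arrays was already known to differ between groups. Their differences are therefore given as measurements with an error, and no test was run on them.

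Glutaredoxins are small oxidoreductases that use glutathione to reduce disulphide bonds or to remove glutathione from proteins. The CC type, also called ROXY after its founding members, is found in land plants and is named for the cysteine pair in its active site. Members of this type are known to bind TGA transcription factors, and several carry a C-terminal motif that recruits the TOPLESS corepressor. ROXY1 and ROXY2 act in petal and anther development, GRX480 acts in the cross-talk between salicylic acid and jasmonate, and AT1G06830 (CEPD1) and AT2G47880 (CEPD2) travel from shoot to root as signals of nitrogen demand. The adjacent CC-type genes on chromosome 4, which include AT4G15700, are known to respond to nitrate.

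The arrays came from Arabidopsis thaliana plants of the Columbia (Col-0) background grown for 7 days on solid Johnson medium with 2% sucrose. Wild type plants received either 2 mM phosphate as KH2PO4 (+Pi) or none (−Pi), whereas the phr1 mutant and the phr1 phl1 double mutant were sampled at −Pi alone, so that no mutant group at +Pi could be compared. The phr1 and phl1 mutations affect a pair of related MYB-CC transcription factors of the phosphate starvation response, and phl1 is 1 T-DNA insertion line. Shoots and roots were processed separately with 3 biological replicates a group, which gave 8 groups and 24 arrays. The study asked how far the response to phosphate starvation depends on these factors.

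The labels were checked first. SPX1, an inhibitor of PHR1 that is induced by phosphate starvation, rose in wild type at −Pi by a log2 difference of 4.44 in shoots and 6.0 in roots. PHR1 and PHL1 had no matched probe set here, so the mutant labels were not checked by the targeted genes. Of 7 shoot markers, 3 were matched (RCA, PSAE-1 and PSAN), and their summed signal on the log2 scale was 13.66 to 14.08 in shoots. In the roots labelled phr1 phl1 this sum was 9.14 to 9.93, against 7.31 to 8.67 in the other roots. Of 7 root markers, 2 were matched (EXPA7 and EXPA18), and their sum was 4.82 to 6.07 in shoots and 7.45 to 9.74 in roots. Each array's mean correlation with the other arrays of its group was 0.968 to 0.994, and the lowest belonged to replicate 2 of phr1 shoots.

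AT3G62950 had a high signal in 1 group only, the shoots labelled phr1 phl1. All values below are RMA signals on the log2 scale, in which 1 unit is a doubling. In those shoots AT3G62950 read 7.69, 7.21 and 6.95 in replicates 1 to 3. In wild type shoots it read 4.24, 3.34 and 4.5 at +Pi, and 3.19, 3.31 and 2.96 at −Pi. In phr1 shoots it read 3.54, 3.21 and 4.33. Every double mutant shoot lay above all other shoots, and replicate 2 at +Pi and replicate 2 of phr1 lay below the other arrays of their groups. In the 12 root arrays the gene stayed between 2.81 and 3.06, where it ranked between percentiles 3.8 and 11.4 of all probe sets on the array.

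Relative to wild type shoots at −Pi, AT3G62950 was higher in phr1 phl1 by a log2 difference of 4.13 (standard error 0.258, n = 3 in each group), or 17.5-fold. This standard error, like those below, comes from 1 estimate of the gene's spread shared by all 8 groups, not from the groups compared alone. The wild type arrays at −Pi ranked between percentiles 7.5 and 14.9 of the array, so a fold against them rests on a low baseline. Relative to phr1 shoots the difference was 3.60 with the same standard error, or 12.1-fold. Relative to wild type shoots at +Pi it was 3.26, and these groups did not overlap either. Between wild type shoots at −Pi and at +Pi the difference was -0.87, with all −Pi arrays below all +Pi arrays. Without replicate 2 at +Pi, the lowest array of that group, this difference was -1.22. The phr1 shoots overlapped wild type at −Pi, with a difference of 0.54 that was 0.12 without replicate 3 of both groups. In order of mean signal, phr1 phl1 shoots (7.29 ± 0.375, SD, n = 3) stood apart from wild type shoots at +Pi (4.03 ± 0.609). From there down, phr1 shoots, wild type shoots at −Pi and the 4 root groups each overlapped the next group.

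AT4G15700 lies at one end of the chromosome 4 run and followed a similar course in shoots. Shoots labelled phr1 phl1 read 7.52, 7.20 and 6.79. Wild type shoots read 4.91, 3.62 and 4.73 at +Pi, and 3.08, 2.87 and 3.08 at −Pi. The phr1 shoots read 4.85, 3.73 and 5.86, which is the widest spread of this gene within a group (SD 1.07). The double mutant arrays were again above every other array, while phr1 shoots lay above all wild type shoots at −Pi and overlapped those at +Pi. In roots the gene read 2.5 to 3.04, between percentiles 0.2 and 10.6 of the array.

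In wild type shoots at −Pi AT4G15700 ranked between percentiles 3.5 and 11.4 of the array, so a fold against them rests on a low baseline. The difference between phr1 phl1 and these wild type shoots was 4.16 (standard error 0.365), or 17.9-fold. It was 1.80 between phr1 and wild type, and 2.36 between phr1 phl1 and phr1. Both of the latter values depended on single replicates: without replicate 3 they were 1.31 and 3.08, and without replicate 2 the second was 1.80. Wild type shoots at −Pi were below those at +Pi by a difference of -1.41 and did not overlap them. By mean signal the order was phr1 phl1 shoots (7.17 ± 0.369), phr1 shoots (4.81 ± 1.07), wild type shoots at +Pi (4.42 ± 0.697), wild type shoots at −Pi (3.01 ± 0.121) and then roots. The phr1 shoots and the +Pi shoots overlapped, as did each group from wild type shoots at −Pi downwards.

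AT1G03020 went the opposite way. Wild type shoots at −Pi read 7.80, 7.16 and 8.15, against 3.47, 3.66 and 3.60 at +Pi. The phr1 shoots read 6.58, 6.46 and 7.37, and the phr1 phl1 shoots 4.56, 4.68 and 4.22. Starved wild type shoots thus lay far above fed shoots, phr1 shoots overlapped the starved wild type through replicate 3, and phr1 phl1 shoots lay between the fed and the starved wild type without touching either. Within replicate numbers phr1 shoots were below wild type in all 3, by differences of -1.22, -0.70 and -0.78. The same differences were 1.77, 0.86 and 2.78 for AT4G15700, and 0.35, -0.10 and 1.37 for AT3G62950, where the sign changed. In roots AT1G03020 read 3.07 to 3.98, between percentiles 11.6 and 33.3 of the array.

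The difference of AT1G03020 between wild type shoots at −Pi and +Pi was 4.13 (standard error 0.236), or 17.5-fold. The +Pi shoots ranked between percentiles 21.0 and 25.8 of the array. At −Pi the difference from wild type was -0.90 in phr1 and -3.22 in phr1 phl1, and between the mutants it was -2.32. The phr1 phl1 shoots at −Pi were still above wild type shoots at +Pi, by 0.91. By mean signal, wild type shoots at −Pi (7.70 ± 0.502) and phr1 shoots (6.80 ± 0.490) overlapped and were followed by phr1 phl1 shoots (4.49 ± 0.237), which stood apart on both sides. The root groups and wild type shoots at +Pi came last and each overlapped the next.

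**Figure D1:**
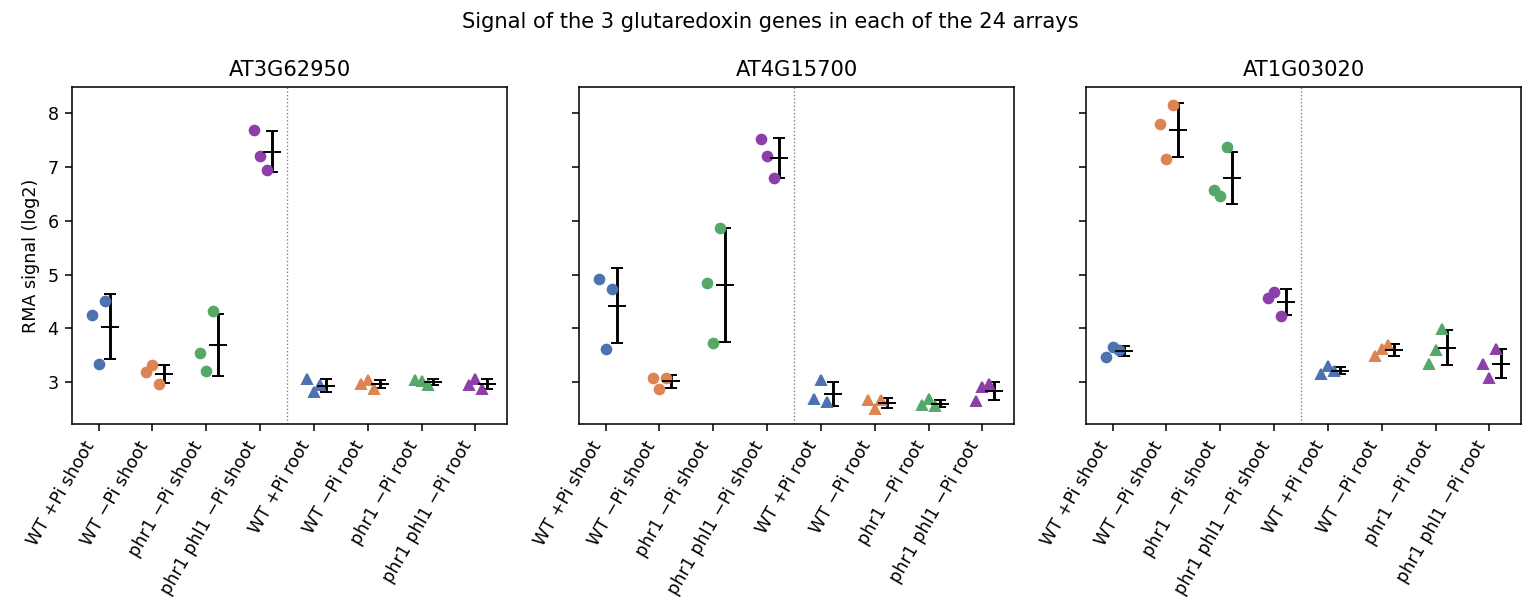
RMA signal on the log2 scale (vertical axis) of AT3G62950, AT4G15700 and AT1G03020 in each array of the 8 groups (horizontal axis). Circles are shoot arrays, triangles are root arrays, and the bars give the mean ± SD of 3 arrays. AT3G62950 and AT4G15700 are highest in the phr1 phl1 shoots (6.79 to 7.69), AT1G03020 in the wild type shoots at −Pi (7.16 to 8.15), and no root array of any of them exceeds 3.98.

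In bulk RNA from an organ, a lower signal from fewer cells of a type and from less RNA per cell cannot be told apart. Counted over the 3 genes, wild type shoots at −Pi lay wholly above those at +Pi for 1 gene and wholly below for 2, where 17.9% and 25.2% of all probe sets did so. Shoots of phr1 lay wholly above wild type for 1 gene (18.8% of all probe sets) and wholly below for 0 (16.2%). Shoots of phr1 phl1 lay wholly above wild type for 2 genes (22.9% of all probe sets) and below for 1 (18.6%). Against phr1 they lay above for 2 genes (6.77%) and below for 1 (6.44%). Against wild type shoots at +Pi they lay above for all 3 (17.6%), in a comparison added after the values were seen. Nothing is read from these counts, since the genes were chosen on these arrays. The comparisons with wild type at −Pi share the same 3 control arrays.

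Root differences were small for all 3 genes. In the 4 root comparisons they ran from -0.31 to 0.38. AT1G03020 in wild type had the largest of them, with arrays at −Pi (3.48, 3.62 and 3.69) above those at +Pi (3.15, 3.29 and 3.20), a difference of 0.38 (standard error 0.236). That error is shared by all 8 groups, shoots included, whereas the SD of these roots was 0.107 at −Pi and 0.0689 at +Pi. AT1G03020 was the only 1 of the 3 genes whose −Pi roots lay wholly above the +Pi roots, as 17.0% of all probe sets did. The double mutant roots, in which the shoot markers were raised, read 2.87 to 3.06 for AT3G62950, 2.65 to 2.96 for AT4G15700 and 3.07 to 3.61 for AT1G03020. These ranges lay inside or across those of the other roots.

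Shoots were compared with roots within each genotype and Pi regime. In phr1 phl1 the shoots were above the roots by 4.32 for AT3G62950 and by 4.33 for AT4G15700, the latter 20.1-fold on the linear scale. For AT1G03020 the largest gap between organs was in wild type at −Pi, at 4.11. The smallest gap for AT3G62950 was in wild type at −Pi, at 0.20, where the arrays of the organs overlapped. Both organs were near the bottom of the array's range there, where lower levels could not be measured.

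AT3G62950 and AT4G15700 followed each other closely. The genes named as most like a member are the 5 highest by Pearson r among probe sets matched to 1 gene, and probe sets without a name could rank between them. Over the 24 arrays the probe set most like AT3G62950 was that of AT4G15700 (Pearson r = 0.944), ahead of AT2G29300, AT4G15690, AT5G66500 and AT2G31010 (0.919 to 0.888), which were also ranks 1 to 5 among all probe sets. Within the 12 shoot arrays their r was 0.94, and after subtraction of each group's mean it was still 0.89. Arrays high for one gene within their group were thus mostly high for the other. Wild type shoots at −Pi were an exception, as replicate 2 was the highest for AT3G62950 (3.31) and the lowest for AT4G15700 (2.87). In the 12 root arrays the same measure was -0.51, where both genes varied by little. The probe sets most like AT4G15700 were those of AT4G15690 (0.962), AT5G53080, AT1G01390, AT2G02410 and AT4G15680 (0.945), of which AT4G15690 ranked 1 and AT4G15680 ranked 6 among all probe sets. Both are neighbours of AT4G15700 in the chromosome 4 run. The points share 1 normalization, and arrays of 1 group share organ, genotype and medium.

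AT1G03020 had an r over the 12 shoot arrays of -0.52 with AT3G62950 and -0.49 with AT4G15700, and over the 24 arrays of 0.06 and 0.20. After subtraction of each group's mean in shoots, r was 0.30 and 0.54, so that the negative values came from the group means. Over 24 arrays the named genes most like it were AT1G51090 (0.933), the sugar transporter gene SWEET4, the cold-regulated gene COR15A, AT4G13800 and AT2G37240 (0.913), at ranks 3, 4, 10, 11 and 13 among all probe sets. Over shoots they were AT1G24575 (0.979), the chitinase gene ChiC, GRXC2 (0.954), AT2G43535 and AT2G37240 (0.931), at ranks 1, 4, 5, 10 and 22. GRXC2 (AT5G40370), a CPYC-type glutaredoxin of the classical kind that reduces substrates with glutathione, ran from 9.99 to 10.92 in shoots, so its range was far narrower than the 3.47 to 8.15 of AT1G03020. Over shoots AT3G62950 was most like AT2G29300 (0.955), AT4G15700, AT2G31010, AT5G56100 and AT5G66500 (0.915), at ranks 1, 2, 3, 7 and 8. AT4G15700 was most like AT5G58120 (0.959), AT3G19900, AT4G15690, AT5G66500 and AT1G22430 (0.941), at ranks 1, 2, 3, 5 and 9.

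**Figure D2:**
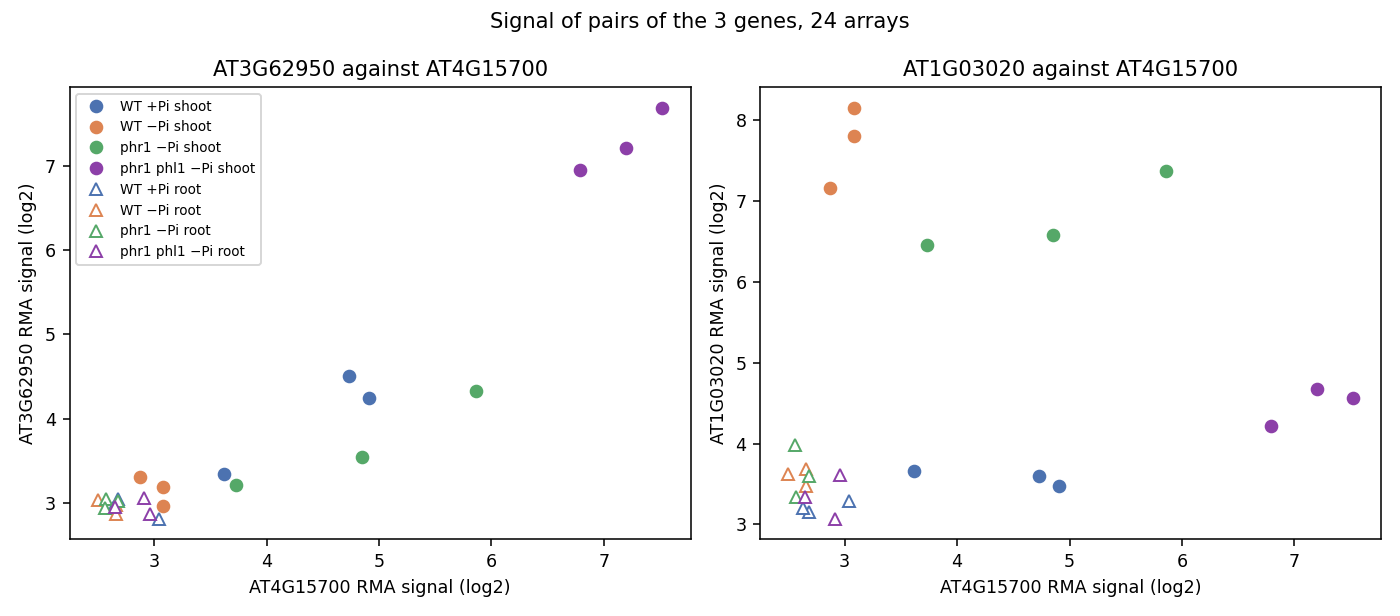
Signal on the log2 scale of AT3G62950 (left, vertical axis) and AT1G03020 (right, vertical axis) against AT4G15700 (horizontal axes) in the 24 arrays, with filled circles for shoots and open triangles for roots. The left panel rises along a line from the roots near 3 to the phr1 phl1 shoots near 7, whereas in the right panel the starved wild type and phr1 phl1 shoots sit at opposite corners.

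The other glutaredoxin genes were tested with limma, with a call where the difference exceeded 2-fold and the p adjusted over all probe sets was under 0.05. Of 31 glutaredoxin genes listed, 22 had a matched probe set, which leaves 14 further CC-type and 5 CPYC genes, while no gene of the CGFS type was matched. In wild type shoots, 6 of these 19 genes were higher at −Pi and 2 were lower, where 8.26% and 7.95% of all probe sets were called. The median difference over the 19 was -0.07, and -0.04 over all probe sets. Those that rose were AT2G30540 (3.96, adjusted p = 1.83e-10), AT5G11930 (3.21), GRX480 (AT1G28480, 3.0), AT4G33040 (1.96), the CPYC gene GRXC3 (AT1G77370, 1.55) and AT4G15660 (1.27). Those that fell were AT5G18600 (-1.56, adjusted p = 4.5e-05) and AT4G15690 (-1.10, adjusted p = 0.00347). Without replicate 2 of every group AT4G15690 was at -0.96 and no longer passed the fold limit.

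In phr1 shoots 3 of the 19 genes were higher than in wild type (6.48% of all probe sets) and 4 were lower (6.63%). AT4G15690 (2.1, adjusted p = 5.81e-06), AT4G15680 (2.03) and AT5G18600 (1.35) rose. AT5G11930 (-3.38, adjusted p = 1.7e-12), GRX480 (-2.78), AT4G33040 (-2.32) and AT2G30540 (-1.56) fell. Without replicate 3 AT5G18600 was at 0.90. The median difference was 0.05 over the 19 genes and 0.02 over all probe sets.

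In phr1 phl1 shoots 5 of the 19 were higher than in wild type (8.24% of all probe sets) and 4 were lower (8.20%), with a median of 0.28 against 0.03 over all probe sets. The 5 were AT4G15690 (3.93, adjusted p = 1.21e-09), AT4G15680 (3.72), AT5G18600 (3.07), AT3G62930 (1.70) and AT4G15660 (1.15). AT4G15690 read 8.70, 8.85 and 7.95 in these shoots, against 4.66, 4.28 and 4.77 in wild type at −Pi. AT5G18600 read 10.46, 10.42 and 10.16, against 7.41, 7.79 and 6.63. For both genes the double mutant arrays lay above all other shoot arrays, as they did for AT3G62950 and AT4G15700. The 4 that fell were the same 4 that fell in phr1: AT5G11930 (-3.65), AT4G33040 (-3.23), GRX480 (-3.09) and AT2G30540 (-2.04). Without replicate 1 AT3G62930 was at 1.46 with an adjusted p of 0.0577, and without replicate 2 AT4G15660 was at 0.72, so that both calls were lost.

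Between the mutants, 4 of the 19 genes were higher in phr1 phl1 than in phr1 shoots, namely AT4G15690 (1.83, adjusted p = 0.00118), AT5G18600 (1.72), AT4G15680 (1.69) and AT4G15660 (1.51). In the same comparison 0.207% of all probe sets were called higher and 0.563% lower. AT4G15690, AT4G15680 and AT4G15660 belong to the chromosome 4 run of AT4G15700, and whether their probe sets tell these similar genes apart was not checked. No glutaredoxin gene was called lower by limma, although 3 had an unadjusted p under 0.05. Every one of the 4 calls was lost without replicate 1 of every group and in a fit of these 6 arrays alone, and 1 was kept when shoots were fitted separately. AT4G15680 was also lost without replicate 2. All differences stayed positive in these fits, and the adjusted p of the lost calls ran from 0.0548 to 0.314.

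**Figure D3:**
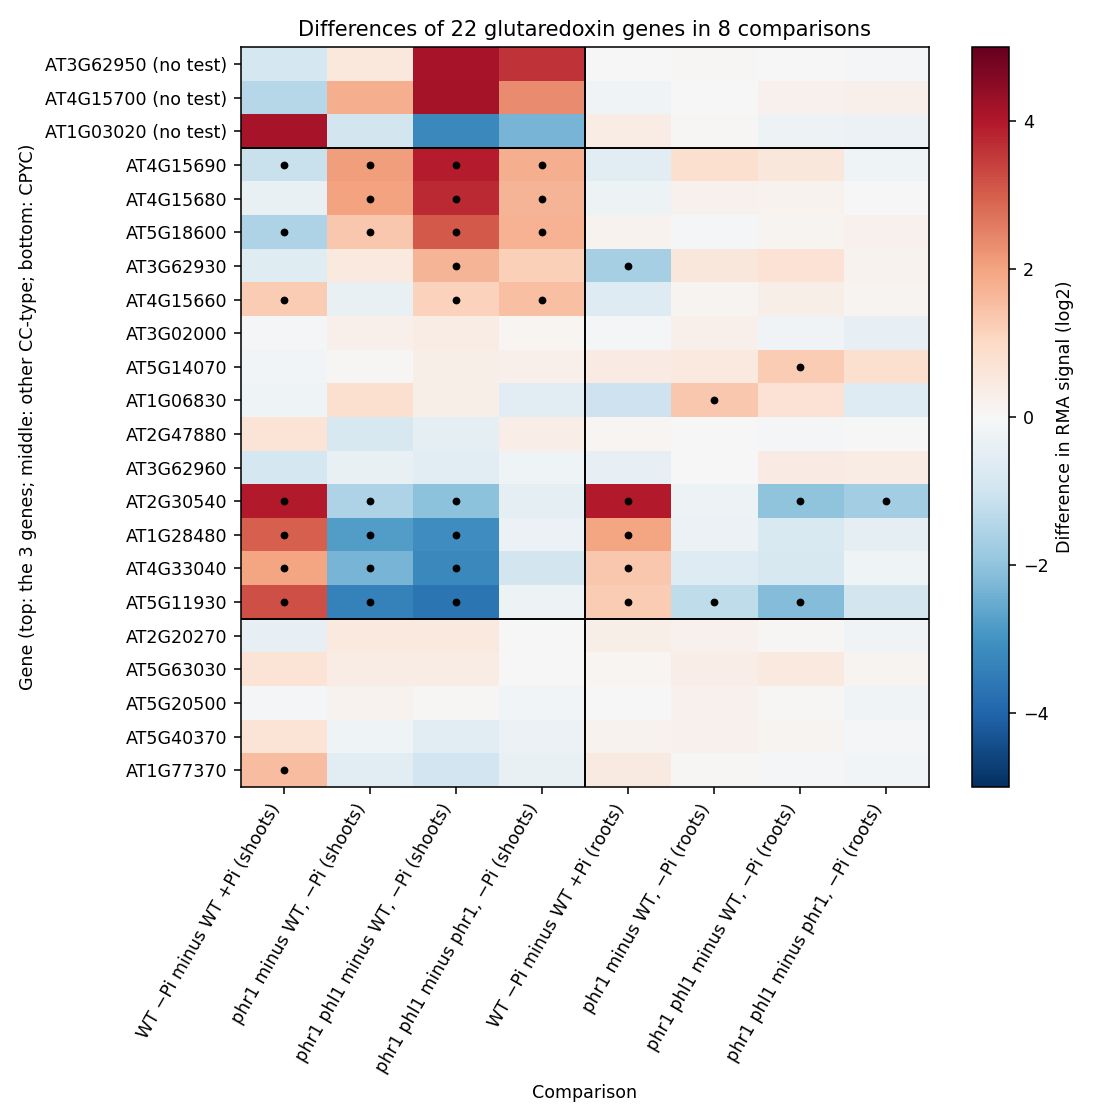
Difference in RMA signal on the log2 scale (colour, red higher and blue lower in the first-named group) for 22 glutaredoxin genes (rows) in 4 shoot and 4 root comparisons (columns). Black dots mark genes called by limma among the 19 tested, and the 3 genes at the top carry no test. In shoots, AT4G15690, AT4G15680 and AT5G18600 share the red of AT3G62950 and AT4G15700 in both mutant columns, and AT2G30540, AT1G28480, AT4G33040 and AT5G11930 share the blue of AT1G03020.

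The genes next to the members on the chromosome were compared in shoots. AT4G15660 to AT4G15700 are 5 adjacent glutaredoxin genes on chromosome 4 with no other protein-coding gene between them, and 4 of them had a probe set. All 4 were above wild type at −Pi in phr1 phl1 shoots without overlap, by 1.15 for AT4G15660, 3.72 for AT4G15680, 3.93 for AT4G15690 and 4.16 for AT4G15700. Such separation upwards was found for 22.9% of all probe sets, and AT4G15700 was chosen on these arrays. They differed in their response to Pi in wild type shoots: AT4G15660 rose by 1.27 at −Pi, and AT4G15690 and AT4G15700 were below their +Pi level by -1.10 and -1.41. AT4G15680 differed by less than the limit of 2-fold. Whether the probe sets tell these similar genes apart was not checked, since no sequence was used here.

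AT3G62950 has AT3G62960 as its next gene and AT3G62930 beyond 1 other gene. AT3G62930 read 6.33, 6.34 and 4.88 in phr1 phl1 shoots, where replicate 3 lay within the 4.66 to 4.90 of wild type at +Pi. AT3G62960 read 4.76, 4.70 and 5.07 in phr1 phl1 shoots and 5.60, 5.44 and 5.18 in wild type at −Pi, so it lay below where its neighbour AT3G62950 lay above. It was called lower in both mutants at −Pi than in wild type at +Pi (-1.22 in phr1 and -1.42 in phr1 phl1, with adjusted p of 5.03e-06 and 8.66e-07), in comparisons in which 3.90% and 3.88% of all probe sets were called lower. These comparisons change both genotype and Pi, and they were added after the values were seen. Wild type at −Pi was itself below +Pi by a difference of -0.86 (adjusted p = 0.00011), under the 2-fold limit, and against wild type at −Pi the differences of -0.36 in phr1 and -0.56 in phr1 phl1 were not called.

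**Figure D4:**
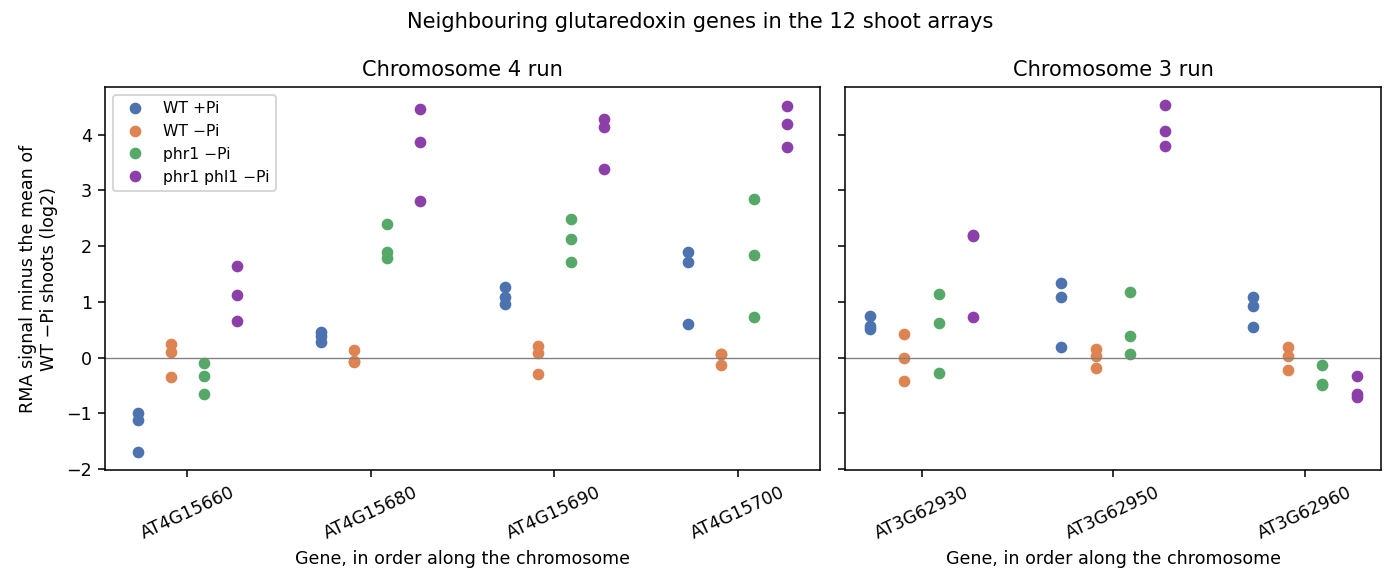
Signal of each of the 12 shoot arrays minus the mean of wild type shoots at −Pi (vertical axis, log2) for neighbouring glutaredoxin genes on chromosome 4 (left) and chromosome 3 (right), in chromosome order (horizontal axis). Each point is 1 array, coloured by group. The phr1 phl1 shoots are above 0 for all 4 genes of the chromosome 4 run and for AT3G62930 and AT3G62950, and below 0 for AT3G62960.

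The genes that fell with AT1G03020 in phr1 phl1 shoots differed among themselves in how far phr1 alone lowered them. AT5G11930 read 7.52, 7.88 and 7.67 in wild type shoots at −Pi and 4.34, 4.41 and 4.17 in phr1, which is within the 4.17 to 4.83 of wild type at +Pi. GRX480 read 7.72, 7.68 and 7.71 and then 4.65, 5.37 and 4.76, against 4.49 to 4.82 at +Pi. AT4G33040 read 7.15, 7.92 and 7.74 and then 4.95, 5.89 and 4.99, against 5.41 to 5.90 at +Pi. AT2G30540 read 10.70, 10.65 and 10.92 in wild type at −Pi and 8.87, 9.5 and 9.21 in phr1, which stayed above the 6.58 to 7.15 of fed shoots. AT1G03020 in phr1, at 6.46 to 7.37, likewise lay far above its fed level of 3.47 to 3.66. The difference between phr1 phl1 and phr1 was not called for AT5G11930, GRX480, AT4G33040 or AT2G30540 in shoots. Their means were still lower in phr1 phl1, going from 4.31 to 4.04, 4.92 to 4.62, 5.28 to 4.37 and 9.19 to 8.72 in turn. For AT1G03020, which was not tested, the difference was -2.32. Against wild type shoots at +Pi, phr1 phl1 shoots lay below for AT4G33040 (4.23 to 4.50) and just below for AT5G11930 (3.88 to 4.16). They overlapped the +Pi shoots for GRX480 (4.53 to 4.71) and stayed above them for AT2G30540 (8.52 to 8.89).

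Some of the other glutaredoxin genes were called in roots. In wild type roots at −Pi, 4 of the 19 were higher (3.05% of all probe sets) and 1 was lower (1.64%). AT2G30540 rose from 2.98, 3.32 and 3.37 to 7.20, 7.25 and 7.16, a difference of 3.98 (adjusted p = 4.94e-10). GRX480 (1.96), AT4G33040 (1.33) and AT5G11930 (1.25) rose too, and AT3G62930 fell by 1.65. Without replicate 1 the call on AT3G62930 was lost, at -1.63 and an adjusted p of 0.105.

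In phr1 roots 1 of the 19 was higher than in wild type (1.49% of all probe sets) and 1 was lower (0.919%). AT5G11930 fell by 1.26 (adjusted p = 7.72e-06). AT1G06830 (CEPD1) was at 1.36 with an adjusted p of 0.0479, and its phr1 roots read 5.34, 4.95 and 6.88. Without replicate 3, which holds the highest of these, its difference was 0.72 with an adjusted p of 0.686, and without replicate 1 the adjusted p was 0.252.

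In phr1 phl1 roots 1 of the 19 was higher than in wild type (3.45% of all probe sets) and 2 were lower (2.19%). ROXY2 (AT5G14070) rose by 1.27, with 6.96, 6.60 and 5.91 against 5.16, 5.25 and 5.25. AT5G11930 (-2.17) and AT2G30540 (-2.00) fell. Against phr1 roots AT2G30540 was lower by a difference of -1.75 (adjusted p = 0.000123), the only call of the 19 (0.809% of all probe sets lower, 0.980% higher), and 2 genes had an unadjusted p under 0.05 in the higher direction. The shoot markers were higher in these roots as well, by 1.84 for RCA, 2.02 for PSAE-1 and 1.81 for PSAN, and their part in the root differences was not tested.

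Higher signal in shoots than in roots was frequent among the other glutaredoxin genes. Of the 19, 10 were higher in shoots of wild type at +Pi (11.7% of all probe sets), 10 at −Pi (12.2%), 9 in phr1 (11.6%) and 8 in phr1 phl1 (11.5%). The numbers higher in roots were 1 (11.6%), 0 (14.4%), 1 (13.9%) and 2 (12.5%), and in wild type at −Pi 1 gene had an unadjusted p under 0.05 in that direction. CEPD2 read 7.56 to 8.82 in all shoots and 3.40 to 3.90 in all roots, and CEPD1 7.68 to 9.17 against 4.22 to 6.88. CEPD2 and CEPD1 thus lay above the roots in all shoots, but in shoots neither was called in any of the 4 comparisons of Pi or genotype. The gap between organs of the 3 genes varied by group instead. For AT3G62950 it was 0.20 in wild type at −Pi and 4.32 in phr1 phl1. The effects themselves were also set against each other between organs with an interaction term. The shoot effect minus the root effect was called higher for 4, 3 and 3 of the 19 genes for Pi, phr1 and phr1 phl1 in turn (5.82%, 5.17% and 6.01% of all probe sets), and lower for 1, 4 and 3 (4.68%, 6.18% and 7.75%). The 5 genes not called in any of the 8 comparisons of Pi or genotype besides CEPD2 and AT3G62960 were ROXY1 and the CPYC genes GRXC1, GRXC2, GRXC4 and GRXS12.

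The remaining lists were matched in small part. Of 15 genes of the glutathione and thioredoxin system 3 were matched, and the thioredoxin reductase gene NTRC was lower at −Pi in wild type shoots (-1.67) and higher in phr1 phl1 than in wild type (1.15). Of 20 nitrate genes 3 were matched, all of the family of HHO repressors. HHO1 rose at −Pi in shoots (3.64) and was lower in phr1 phl1 (-3.57), and HHO2 followed (2.85 and -1.07). Of 10 type-A cytokinin response regulators 2 were matched. ARR16 fell at −Pi in shoots (-2.5) and was higher in phr1 (2.06) and in phr1 phl1 (3.60). Wild type shoots at −Pi read only 3.21 to 3.36 for it, so these differences rest on a low baseline. ARR16 read 6.61, 4.41 and 6.33 in wild type shoots at +Pi, so that replicate 2 was low for it as for AT3G62950 and AT4G15700. None of 15 TGA factor and TOPLESS genes was matched, so the known partners of these glutaredoxins are not analysed here.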

How the data were processed

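Shoots and roots of wild type, phr1 and phr1 phl1 plants were hybridised to 24 ATH1 arrays, 3 in each of 8 groups. The authors deposited RMA values on the log2 scale, 1 per probe set and array, that is, background-corrected, quantile-normalized and summarised signals. RMA compresses low signals and carries no read depth, so that the number of arrays limits the precision. A version of RMA is not given in the sources used here. After 64 control probe sets were left out, 1 model with 8 group means was fitted to 22746 probe sets with limma 3.58.1 in R 4.3.3, and p-values were adjusted by Benjamini-Hochberg within a comparison over all of them. A call needed a difference beyond 2-fold together with an adjusted p below 0.05, the limits in the study's methods. The script was tested on simulated data.

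Probe sets were named through the platform's gene table, with symbols and gene neighbours from RefSeq: 13514 matched 1 gene, 503 several and 8729 none, and 3 more were named from the study's supplement by identifier. The 3 members and all lists were chosen with earlier results of these data known. Named were the members in every array, each other glutaredoxin gene, the 5 probe sets matched to 1 gene that were most correlated with each member over 24 and over 12 shoot arrays, and up to 4 called genes of each other list. Biological replicates are as labelled. Same-numbered arrays of wild type and phr1 shoots at −Pi deviated together (correlations of 0.499, 0.654 and 0.433), so the numbers pair these groups, by the data alone. In the other comparisons checked, at least 1 of the 3 correlations was negative or small, as between roots of phr1 phl1 and phr1 (0.0389, 0.452 and 0.204). Shoots were not set against roots in this check, and the fit treats them as independent. Other settings tried were a block for the replicate number, separate fits, a filter on dim probe sets, array centring, quantile normalization within organs, a robust trended variance, other thresholds and omission of arrays.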

Additional observations from a re-analysis of the deposited data

Results flagged for a closer look

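The effects of Pi and of the mutations on the other glutaredoxin genes were compared between shoots and roots with an interaction term in limma, and 18 differences between the organs passed the same limits. Each value is the log2 difference in shoots minus that in roots. For the response of wild type to −Pi they were 1.96 for AT5G11930 (adjusted p = 1.63e-06), 1.91 for AT4G15660, 1.09 for AT1G77370, 1.04 for AT1G28480 and -1.74 for AT5G18600 (adjusted p = 0.00144). AT5G18600 thus fell in shoots without a called change in roots. The value of AT1G28480 lost its call without any 1 of the 3 replicates, that of AT5G18600 without replicate 1 or 3, and that of AT1G77370 without replicate 2 or 3.

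For the effect of phr1 at −Pi they were 1.83 for AT4G15680, 1.45 for AT5G18600, 1.30 for AT4G15690, -1.31 for AT2G30540, -1.70 for AT4G33040, -2.12 for AT5G11930 and -2.48 for AT1G28480 (adjusted p = 1.18e-05). Without replicate 1 the values of AT4G15680, AT5G18600 and AT4G15690 lost their calls, without replicate 2 that of AT4G15690, and without replicate 3 those of AT5G18600, AT4G15690, AT2G30540 and AT4G33040. For the effect of phr1 phl1 they were 3.54 for AT4G15680 (adjusted p = 1.47e-06), 3.35 for AT4G15690, 2.93 for AT5G18600, -1.48 for AT5G11930, -2.32 for AT1G28480 and -2.41 for AT4G33040. The 3 genes of the chromosome 4 run and chromosome 5 that rose in mutant shoots, AT4G15680, AT4G15690 and AT5G18600, were high in both sets. For comparison, the same measure for the effect of phr1 phl1, with no test, was 4.13 for AT3G62950, 3.93 for AT4G15700 and -2.96 for AT1G03020.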

How the results depend on the processing

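No called difference reversed. Of 171 values for the 3 genes under an alternative, 5 changed sign, all in roots: AT3G62950 for Pi from 0.03 to -0.07 without replicate 2, AT4G15700 for phr1 from -0.01 to 0.01 with quantiles within organs and to 0.03 and 0.04 without replicates 1 and 3, and AT1G03020 for phr1 from 0.05 to -0.07 without replicate 3. Of the values for single genes among the 19, 623 kept their call and 40 lost it with the same direction. For the 3 genes, leaving out each replicate number gave for wild type −Pi minus +Pi in shoots -1.29 to -0.54 (AT3G62950) and 3.91 to 4.44 (AT1G03020). For phr1 minus wild type it gave 0.12 to 0.85 (AT3G62950) and 1.31 to 2.27 (AT4G15700), for phr1 phl1 minus wild type -3.59 to -2.86 (AT1G03020), and for phr1 phl1 minus phr1 3.32 to 4.08, 1.80 to 3.08 and -2.59 to -1.91 for AT3G62950, AT4G15700 and AT1G03020. Without replicate 2 of wild type shoots at +Pi, chosen after seeing the data, AT3G62950 was at -1.22 for −Pi minus +Pi.

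Counts of the 19 genes moved as follows. With the adjusted p alone the numbers lower were 4 (Pi, shoots), 7 (phr1 phl1, shoots), 1 (phr1 phl1 against phr1, shoots), 4 (phr1 phl1, roots), 2 (phr1 phl1 against phr1, roots, with 1 higher), 2 and 7 for the organ differences of the Pi and phr1 phl1 effects, and 3, 1, 4 and 5 for shoots against roots in wild type at +Pi and −Pi, phr1 and phr1 phl1. With 1.5-fold and an adjusted p under 0.1 they were 1 (phr1 phl1 against phr1, shoots), 2 (Pi, roots), 4 (phr1 phl1, roots), 2 (phr1 phl1 against phr1, roots, with 1 higher), 2 and 7 for the same organ differences, and 3, 1, 3 and 5 for shoots against roots. For phr1 phl1 against phr1 in shoots the number higher was 1 with organs fitted separately and 0 with only the groups compared. In the latter fit 2 were lower for Pi in roots. For phr1 in roots the number higher was 0 in those 2 fits, with the replicate block, with array medians centred and without the 3 roots labelled phr1 phl1, an alternative added later. The block changed no other count by over 1.5 times, and for 14 of 24 arrays the closest array by deviation had the same number. With medians centred 0 genes were lower in shoots than in roots of wild type at +Pi.

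Leaving out each replicate number gave 0 to 5 higher for phr1 phl1 against phr1 in shoots, 0 to 1 lower for Pi in roots, 0 to 1 higher for phr1 in roots, and 0 to 1 and 1 to 2 lower for shoots against roots in wild type at +Pi and phr1 phl1. For the organ differences it gave 2 to 3 higher and 0 to 1 lower (Pi), 0 to 2 higher and 2 to 4 lower (phr1), and 3 to 5 higher and 3 to 5 lower (phr1 phl1). The causes were not tested. With 3 arrays a group and signals at the bottom of the array's range in roots, small root differences of the 3 genes cannot be measured.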
